A study of Homo sapiens with 6 samples.

Results

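The replication-dependent histone genes are the protein-coding genes H1-1 to H1-6 of linker histone H1 and the H2AC, H2BC, H3C and H4C genes of the core histones. They were chosen by symbol alone: deposited transcripts were matched to RefSeq symbols and their counts summed per gene. This gave 70 genes of 28436 in the table, with 6 for H1, 17 for H2A, 19 for H2B, 13 for H3 and 15 for H4. By the RefSeq annotation of GRCh38.p14, 55 lie on chromosome 6, 13 on chromosome 1, 1 on chromosome 12 and 1 on chromosome 21.

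The study sequenced RNA of A549, a long-established line from a human lung adenocarcinoma, taken after stable lentiviral delivery of a short hairpin RNA. The 3 groups of 2 libraries each were shCBX8-2 and shCBX8-1, both labelled CBX8 knockdown, and control, which carried a control hairpin. CBX8 is a chromobox subunit of Polycomb repressive complex 1. The labels do not say whether the lines were clones or pools, what separates the shCBX8-1 and shCBX8-2 titles, or whether replicate libraries were made from different cultures, so p-values reflect only how far these libraries spread, which may be technical.

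CBX8, the targeted gene, was measured first as a check of the labels. It had 17.7 and 13.8 CPM (library sizes adjusted by TMM) in shCBX8-2, 7.79 and 7.70 CPM in shCBX8-1, and 24.6 and 26.3 CPM in control. Both knockdown groups lay below control without overlap, and shCBX8-1 lay below shCBX8-2. The log2 fold change was -0.69 ± 0.15 for shCBX8-2 minus control (SE; adjusted p = 0.0297) and -1.72 ± 0.16 for shCBX8-1 minus control (adjusted p = 0.00704). The shCBX8-2 libraries differed more from each other than those of the other groups, with a median absolute log2 difference over tested genes of 0.24 in shCBX8-2, 0.128 in shCBX8-1 and 0.129 in control. Leaving out replicate 1 or 2 of shCBX8-2 gave 3502 or 5529 genes called in shCBX8-2 minus control, against 2171 with all libraries, and 4 histone genes called in both cases, against 3, with 1 of the 4 higher when replicate 2 was left out. In shCBX8-1 minus control, calls then also became more numerous, both among the histone genes and among all tested genes. Libraries held 64197784 to 67169537 estimated counts, and 13 of 14 markers of A549 lung epithelium, among them the keratins KRT8 and KRT18, were at levels that could be tested. Some of these markers differed between groups. KRT19 had 0.504 and 0.652 CPM in shCBX8-2, 4.11 and 3.97 CPM in shCBX8-1, and 0.407 and 0.359 CPM in control. CDH1 had 18.5 and 17.6 CPM in shCBX8-2, 11.3 and 10.4 CPM in shCBX8-1, and 19.3 and 21.8 CPM in control. ALDH1A1 had 1846 and 2156 CPM in shCBX8-2, 3999 and 4174 CPM in shCBX8-1, and 3522 and 3525 CPM in control. Of the 13, 3 rose and 3 fell in shCBX8-2 minus control, where 12.7% of all tested genes were called. In shCBX8-1 minus control 2 rose and 2 fell, where 2.47% of all tested genes were called. The surfactant genes SFTPB and SFTPC, which mark alveolar type II cells, reached at most 0.302 and 0.182 CPM in a library. Of 16 markers of other cell types 3, among them CD3E and DCN, had no count in any library, and the list summed to 144 and 135 CPM in shCBX8-2, 209 and 205 CPM in shCBX8-1, and 142 and 150 CPM in control.

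Replication-dependent histone genes supply the histones that package newly made DNA, and their mRNA normally accumulates in S phase and is destroyed when replication stops. Their transcripts lack introns as a rule and end in a conserved stem-loop in place of a poly(A) tail. The stem-loop is bound by the protein SLBP and cleavage behind it needs the U7 small nuclear RNA. A library that selects RNA by its poly(A) tail therefore captures these mRNAs poorly, apart from forms that run on to a poly(A) signal. The RNA was labelled total RNA and library preparation was given only as a standard Illumina protocol, so whether poly(A) RNA was selected is not given in the sources used here.

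The stem-loop was searched for as the 16-base histone 3′ stem-loop consensus in the GENCODE v29 transcripts (GRCh38), and 31 of the 70 genes had it in a model. It is given here for members that passed a test in any comparison and for H4C14, an H4 gene whose loop has other stem letters. Capitals mark the stem-loop in each sequence.
H2AC6, chr6:26124664-26124689, plus strand: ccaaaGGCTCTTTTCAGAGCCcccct
H2AC18, chr1:149842218-149842243, minus strand: caaaaGGCTCTTTTCAGAGCCaccca
H2AC19, chr1:149851569-149851594, plus strand: caaaaGGCTCTTTTCAGAGCCaccca
H2BC4, chr6:26123467-26123492, minus strand: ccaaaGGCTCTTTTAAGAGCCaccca
H2BC21, chr1:149886183-149886208, minus strand: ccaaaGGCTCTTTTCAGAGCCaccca
H4C14, chr1:149833027-149833052, plus strand: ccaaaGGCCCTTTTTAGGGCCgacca
The capital letters were the same in H2AC6, H2AC18, H2AC19 and H2BC21. For H2BC12 and H1-2, which also passed a test, the models stop at or near the stop codon and hold no 3′ end to search. In RefSeq, which the deposited transcripts follow, 23 of the 31 genes end 4 to 6 bases past the stem-loop. Of the rest, H2BC21 ends 1729, H3C6 1862, H2BC4 10302, H2BC5 12747, H4C15 16281 and H2BC18 29196 bases past it. H2BC8 and H4C9 end 18 and 9 bases past it.

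The replication-dependent histone genes together took a very small share of the RNA, 0.01683 and 0.01643% of the counts in shCBX8-2, 0.03044 and 0.03115% in shCBX8-1, and 0.02456 and 0.02342% in control. Some accessions stand in the table more than once, and the rows can hold nearly equal counts, as with 484 and 486 for H2AC18 in 1 shCBX8-2 library. Without the repeats the shares were 0.01517 and 0.01504% in shCBX8-2, 0.02758 and 0.02844% in shCBX8-1, and 0.0225 and 0.0213% in control.

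Non-polyadenylated RNAs of other kinds were scarce as well. Among 21 listed genes whose RNA carries no poly(A) tail, such as RN7SL1 and RN7SL2 of the signal recognition particle and the vault and Y RNAs, 3 had no count in any library and 8 could be tested. They summed to 66.2 and 135 CPM in shCBX8-2, 38.3 and 40.7 CPM in shCBX8-1, and 99.7 and 55.1 CPM in control. The shCBX8-2 and control values overlapped, the shCBX8-1 values were the lowest, and 0 of the 8 passed in any comparison by edgeR. At an unadjusted p under 0.05 there were 5 in shCBX8-2 minus shCBX8-1, 0 in shCBX8-2 minus control, 2 in shCBX8-1 minus control and 1 in knockdown minus control. DESeq2 called 2 as higher in shCBX8-2 minus shCBX8-1 and 0 in the other comparisons. The part that poly(A) capture plays in the histone values was not tested.

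Few histone genes carried most of the counts. H2BC12 alone held 39.7% of the counts of the 70 genes over the 6 libraries, H1-2 held 16%, H2AC18 9.15% and H2AC6 5.29%, and the 8 highest genes held 87.5%. Per kilobase of coding sequence, H2BC12 stood at 248 CPM, H1-2 at 59.4, H2AC18 at 55.5, H2AC6 at 32.2 and H2AC25 at 31.3, with the repeated H2AC18 row included. A mean of 1 CPM or more was reached by 16 genes. The other 54 genes were below that mean, and 7 of them had no count in any library. The low-count filter left 44 of the 70 genes for testing, and the 26 genes outside it had mean levels up to 0.107 CPM.

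**Figure D1:**
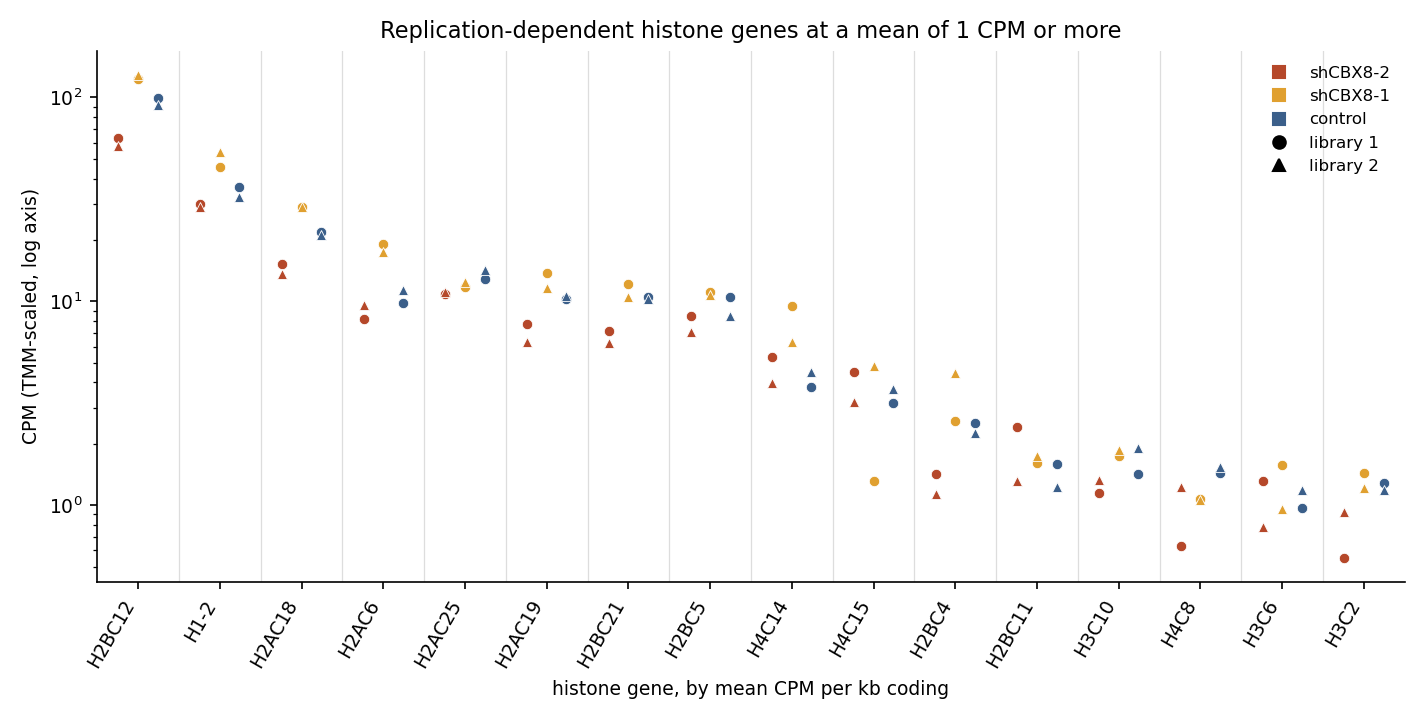
CPM (log axis) of the 16 replication-dependent histone genes with a mean of 1 CPM or more, in order of mean CPM per kilobase of coding sequence, with 1 point per library. In H2BC12, H1-2, H2AC18 and H2AC6 both shCBX8-2 libraries lie lowest and both shCBX8-1 libraries highest, while H2AC25 is lowest in shCBX8-2 and highest in control.

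Genes whose GENCODE models run on to a poly(A) signal were the better detected ones. A model was counted as such when AATAAA or ATTAAA stood 10 to 40 bases before its end, which held for 22 genes. Their median level was 3.80 CPM per kilobase of coding sequence, and 20 of the 22 could be tested. The 15 genes whose models run past the stop codon with no such signal had a median of 0.458 CPM per kilobase, and 0 of them reached a mean of 1 CPM. The 33 genes whose models hold little or nothing past the stop codon had a median of 0.263 CPM per kilobase, but H2BC12 and H1-2 are among them. The GENCODE model of H2BC12 holds 381 bases, while its RefSeq gene spans chr6:27138293-27146858. The counts are per RefSeq transcript, whose ends can differ from these models, and 15 of the 22 genes end 4 to 6 bases past the stem-loop in RefSeq.

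**Figure D2:**
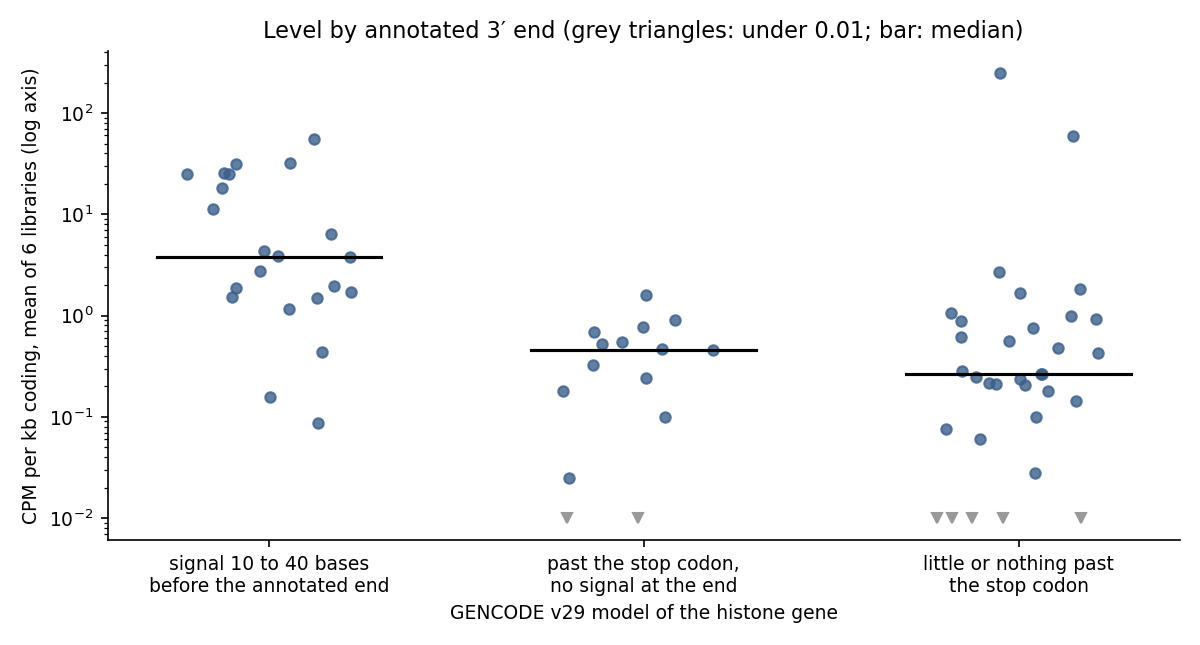
Mean level over the 6 libraries, in CPM per kilobase of coding sequence (log axis), of the 70 genes by the 3′ end of their GENCODE v29 models. Each point is 1 gene, bars are medians (3.80, 0.458 and 0.263), and grey triangles at the bottom are the 7 genes with no count.

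The comparisons addressed how expression differs between CBX8 knockdown and control cells. Few histone genes passed against control, at shares near those of all tested genes. In shCBX8-2 minus control, 3 of the 44 tested genes fell (6.82%; H2BC12, H2AC18 and H2BC21) and 0 rose, and 12.7% of all 17106 tested genes were called (6.03% higher and 6.66% lower). In shCBX8-1 minus control, 1 gene rose (2.27%; H2AC6) and 0 fell, and 2.47% of all tested genes were called (1.34% higher and 1.13% lower). In shCBX8-2 minus shCBX8-1, 7 genes fell (15.9%; H2BC12, H2AC18, H2AC19, H2AC6, H2BC21, H2BC4 and H1-2) and 0 rose, against 9.84% of all tested genes called (4.05% higher and 5.79% lower). Averaged over shCBX8-2 and shCBX8-1 and set against control (knockdown minus control), 0 histone genes were called by edgeR, 0 by DESeq2, and 4 had an unadjusted p under 0.05, against 6.82% of all tested genes called (3.32% higher and 3.5% lower). Calls are at an adjusted p under 0.05.

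The median log2 fold change of the 44 tested genes was -0.22 in shCBX8-2 minus control, against -0.04 over all tested genes, and 28 of the 44 were below 0. That value was -0.057 with no filter on low counts, -0.0895 when control replicate 1 was left out, -0.109 for shCBX8-1 replicate 2 and -0.438 for shCBX8-2 replicate 2, and over the 28 tested genes below a mean of 1 CPM it was -0.0073. It was 0.29 in shCBX8-1 minus control, against -0.01 over all tested genes, with 30 of the 44 above 0 (0.18 without shCBX8-1 replicate 1). For shCBX8-2 minus shCBX8-1 it was -0.24, against -0.01 over all tested genes, with 33 of the 44 below 0 (-0.493 when shCBX8-1 replicate 2 was left out and -0.377 for shCBX8-2 replicate 2). The 44 are those that passed the filter on low counts with all libraries. Fits with a library left out tested other numbers, such as 54 without control replicate 1. The first and second of these comparisons share the control libraries.

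Summed over the 70 genes, levels were 178 and 168 CPM in shCBX8-2, 299.7 and 309 CPM in shCBX8-1, and 239.8 and 226.9 CPM in control. The 3 groups did not overlap. The shCBX8-2 mean was 0.742 times and the shCBX8-1 mean 1.31 times the control mean, and without H2BC12 these ratios were 0.816 and 1.29. In whole-culture RNA, fewer cells that express histone genes and less histone mRNA per cell cannot be told apart. The summed level of 39 other genes of S phase and DNA replication was 1.51 and 1.45 times the control mean in shCBX8-2 and 1.14 and 1.18 times in shCBX8-1, so in shCBX8-2 it lay above control while the histone sum lay below. The summed markers of other cell types were highest in shCBX8-1, but the median log2 fold change of the 10 tested was -0.22 in shCBX8-1 minus control. The macrophage marker CD68 had 96 and 93.5 CPM in shCBX8-2, 121 and 117 CPM in shCBX8-1, and 80.4 and 85.2 CPM in control. The collagen gene COL1A1 had 5.33 and 4.32 CPM in shCBX8-2, 8.34 and 8.69 CPM in shCBX8-1, and 10.4 and 12.9 CPM in control. The part of these markers in the histone values was not tested.

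**Figure D3:**
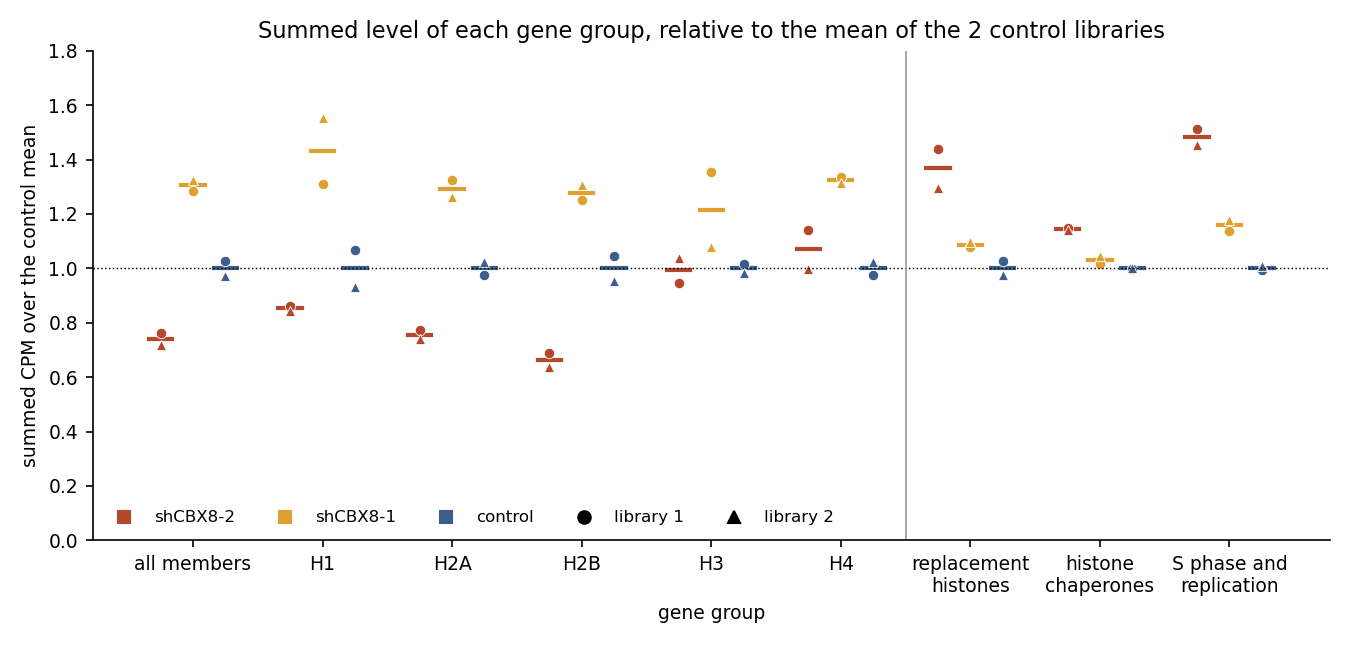
Summed CPM of each gene group divided by the mean of the control libraries, with 1 point per library and a bar at each group mean. H1, H2A and H2B sums lie below control in shCBX8-2 and above it in shCBX8-1, while replacement histones, histone chaperones and S phase genes lie above control in both knockdown groups.

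H2B pairs with H2A in the nucleosome, and of the 5 classes H2B held the most counts in every library. H2BC12 had 62.9 and 58.0 CPM in shCBX8-2, 123 and 129 CPM in shCBX8-1, and 99.5 and 91.2 CPM in control. No library of one group overlapped another, with shCBX8-2 lowest and shCBX8-1 highest. H2BC12 fell in shCBX8-2, with a log2 fold change of -0.66 ± 0.09 against control (SE; adjusted p = 0.0067) and -1.06 ± 0.09 against shCBX8-1 (adjusted p = 0.00167). Against control, shCBX8-1 differed by 0.40 ± 0.09 (adjusted p = 0.0688). Of the 2 RefSeq transcripts summed for H2BC12, 1 held 3970 and 3629 counts in shCBX8-2, 7998 and 8501 in shCBX8-1, and 6584 and 6097 in control, and the other held between 2 and 23.

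H2BC21 had 7.14 and 6.23 CPM in shCBX8-2, 12.2 and 10.5 CPM in shCBX8-1, and 10.5 and 10.2 CPM in control. The shCBX8-2 libraries were the lowest, and shCBX8-1 and control overlapped. H2BC21 fell by 0.63 on the log2 scale in shCBX8-2 minus control (SE 0.15, adjusted p = 0.0384) and by 0.76 in shCBX8-2 minus shCBX8-1 (SE 0.15, adjusted p = 0.0273). H2BC4 had 1.42 and 1.13 CPM in shCBX8-2, 2.59 and 4.43 CPM in shCBX8-1, and 2.53 and 2.26 CPM in control. Its level was lowest in both shCBX8-2 libraries, and the shCBX8-1 libraries differed most from each other. H2BC4 fell in shCBX8-2 minus shCBX8-1, by 1.46 ± 0.33 on the log2 scale (SE, adjusted p = 0.0395), and its difference from control was -0.91 ± 0.33 (adjusted p = 0.118).

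H2BC5 and H2BC11 did not pass in any comparison. H2BC5 had 8.46 and 7.11 CPM in shCBX8-2, 11.1 and 10.8 CPM in shCBX8-1, and 10.5 and 8.43 CPM in control, so shCBX8-2 overlapped control. Most of its counts came from 1 of 2 RefSeq transcripts, with 383 and 366 counts in shCBX8-2, 595 and 560 in shCBX8-1, and 592 and 558 in control, while the other transcript had 154 and 81, 127 and 151, and 107 and 6 counts in those groups. H2BC11 had 2.43 and 1.32 CPM in shCBX8-2, 1.61 and 1.74 CPM in shCBX8-1, and 1.58 and 1.23 CPM in control, so shCBX8-2 overlapped both other groups. Summed over the 19 H2B genes, the shCBX8-2 mean was 0.662 times and the shCBX8-1 mean 1.28 times the control mean.

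Among the H2A genes, H2AC18 had 15.3 and 13.6 CPM in shCBX8-2, 28.9 and 29.1 CPM in shCBX8-1, and 21.9 and 21.2 CPM in control. The groups were separate, in the same order as for H2BC12. H2AC18 fell in shCBX8-2, with a log2 fold change of -0.57 ± 0.12 against control (SE; adjusted p = 0.0239) and -1.01 ± 0.12 against shCBX8-1 (adjusted p = 0.00533). H2AC19 had 7.74 and 6.34 CPM in shCBX8-2, 13.8 and 11.7 CPM in shCBX8-1, and 10.2 and 10.6 CPM in control. It was again lowest in shCBX8-2, with a log2 fold change of -0.86 ± 0.16 against shCBX8-1 (adjusted p = 0.0241) and -0.56 ± 0.16 against control (adjusted p = 0.067).

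H2AC18 and H2AC19 are copies whose coding sequences had 0 differences over 393 bases, and their RefSeq promoter windows shared a run of 299 bases, so the split of counts between them is uncertain. Their summed level was 23.0 and 19.9 CPM in shCBX8-2, 42.8 and 40.8 CPM in shCBX8-1, and 32.1 and 31.7 CPM in control. Fitted as 1 gene, an alternative chosen after seeing the data, the pair fell by 0.57 on the log2 scale in shCBX8-2 minus control (adjusted p = 0.0221).

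H2AC6 was the histone gene that rose in shCBX8-1. It had 8.16 and 9.59 CPM in shCBX8-2, 19 and 17.4 CPM in shCBX8-1, and 9.86 and 11.3 CPM in control. Both shCBX8-1 libraries stood above all others, and shCBX8-2 lay just below control. The log2 fold change was 0.78 ± 0.15 in shCBX8-1 minus control (SE; adjusted p = 0.0492) and -1.04 ± 0.15 in shCBX8-2 minus shCBX8-1 (adjusted p = 0.01), and in shCBX8-2 minus control it was -0.26 ± 0.15 (adjusted p = 0.303). The call in shCBX8-1 minus control was lost when any control or shCBX8-1 library was left out (adjusted p up to 0.339), with no filter (0.0735) and without repeated accessions (0.061).

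H2AC25, which lies beside H2BC26 on chromosome 1, had 10.9 and 11.1 CPM in shCBX8-2, 11.7 and 12.5 CPM in shCBX8-1, and 12.8 and 14.2 CPM in control. It was lowest in shCBX8-2 and highest in control. It passed in no comparison, and its log2 fold change in shCBX8-2 minus shCBX8-1 was -0.14 ± 0.13 (adjusted p = 0.529). H2AC20 had the smallest p of the histone genes in knockdown minus control, at 1.45 ± 0.47 on the log2 scale (adjusted p = 0.121), with 1.17 and 0.763 CPM in shCBX8-2, 0.598 and 1.03 CPM in shCBX8-1, and 0.347 and 0.299 CPM in control.

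H1-2 encodes a linker histone that binds DNA between nucleosomes and was the one H1 gene with a mean of 1 CPM or more. It had 29.9 and 29.1 CPM in shCBX8-2, 45.8 and 54.1 CPM in shCBX8-1, and 36.4 and 32.4 CPM in control. The groups were separate, with shCBX8-2 lowest and shCBX8-1 highest. H1-2 fell in shCBX8-2 minus shCBX8-1, by 0.76 ± 0.12 on the log2 scale (SE; adjusted p = 0.0137), and missed the threshold in shCBX8-2 minus control (-0.22 ± 0.12, adjusted p = 0.271) and in shCBX8-1 minus control (0.54 ± 0.12, adjusted p = 0.0752). H1-4 had 0.268 and 0.175 CPM in shCBX8-2, 0.0613 and 0.182 CPM in shCBX8-1, and 0.980 and 0.164 CPM in control, so 1 control library stood above the rest.

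H3 and H4 form the central tetramer of the nucleosome, and 0 of their 18 tested genes passed in any of the 4 comparisons by edgeR. At an unadjusted p under 0.05 there were 3 in knockdown minus control, 1 in shCBX8-1 minus control, 0 in shCBX8-2 minus control and 1 in shCBX8-2 minus shCBX8-1, and DESeq2 called H4C14 alone, in shCBX8-1 minus control (adjusted p = 0.0337). The best measured was H4C14, with 5.33 and 3.99 CPM in shCBX8-2, 9.45 and 6.29 CPM in shCBX8-1, and 3.80 and 4.50 CPM in control. Its shCBX8-1 libraries were the highest, at a log2 fold change of 0.92 ± 0.26 from control (adjusted p = 0.131). H4C15, whose coding sequence had 0 differences from that of H4C14 over 312 bases, had 4.52 and 3.21 CPM in shCBX8-2, 1.32 and 4.81 CPM in shCBX8-1, and 3.18 and 3.71 CPM in control.

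In the shCBX8-1 library where H4C15 was lowest, H4C14 was highest. The 2 genes summed to 9.85 and 7.20 CPM in shCBX8-2, 10.8 and 11.1 CPM in shCBX8-1, and 6.98 and 8.20 CPM in control, and how counts are divided between such copies is uncertain. The H3 genes with a mean of 1 CPM or more were H3C2, H3C6 and H3C10. H3C2 had 0.552 and 0.922 CPM in shCBX8-2, 1.44 and 1.21 CPM in shCBX8-1, and 1.28 and 1.18 CPM in control, with shCBX8-2 below both other groups. Its log2 fold change was -0.85 ± 0.39 in shCBX8-2 minus shCBX8-1 (adjusted p = 0.227).

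H3C10 had 1.15 and 1.34 CPM in shCBX8-2, 1.75 and 1.86 CPM in shCBX8-1, and 1.42 and 1.90 CPM in control. H3C6 had 1.31 and 0.779 CPM in shCBX8-2, 1.58 and 0.955 CPM in shCBX8-1, and 0.965 and 1.18 CPM in control. H4C8 had 0.630 and 1.22 CPM in shCBX8-2, 1.07 and 1.06 CPM in shCBX8-1, and 1.43 and 1.54 CPM in control. H3C6 overlapped between all groups, H3C10 was lowest in shCBX8-2, and H4C8 was highest in control. The summed H3 level was 0.992 times that of control in shCBX8-2 and 1.21 times in shCBX8-1, and the summed H4 level was 1.07 times that of control in shCBX8-2 and 1.32 times in shCBX8-1.

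The copies H3C14 and H3C15, with 0 differences over 411 coding bases, summed to 1.53 and 1.53 CPM in shCBX8-2, 2.12 and 1.27 CPM in shCBX8-1, and 0.875 and 0.568 CPM in control. Both control libraries lay below the other 4. Neither gene passed in knockdown minus control, with adjusted p = 0.200 for H3C14 and 0.197 for H3C15. Over the 28 tested genes below a mean of 1 CPM, log2 fold changes in shCBX8-2 minus shCBX8-1 ran from -2.46 to 2.51 with a median standard error of 0.898, so changes in them were not detectable at this depth unless large.

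**Figure D4:**
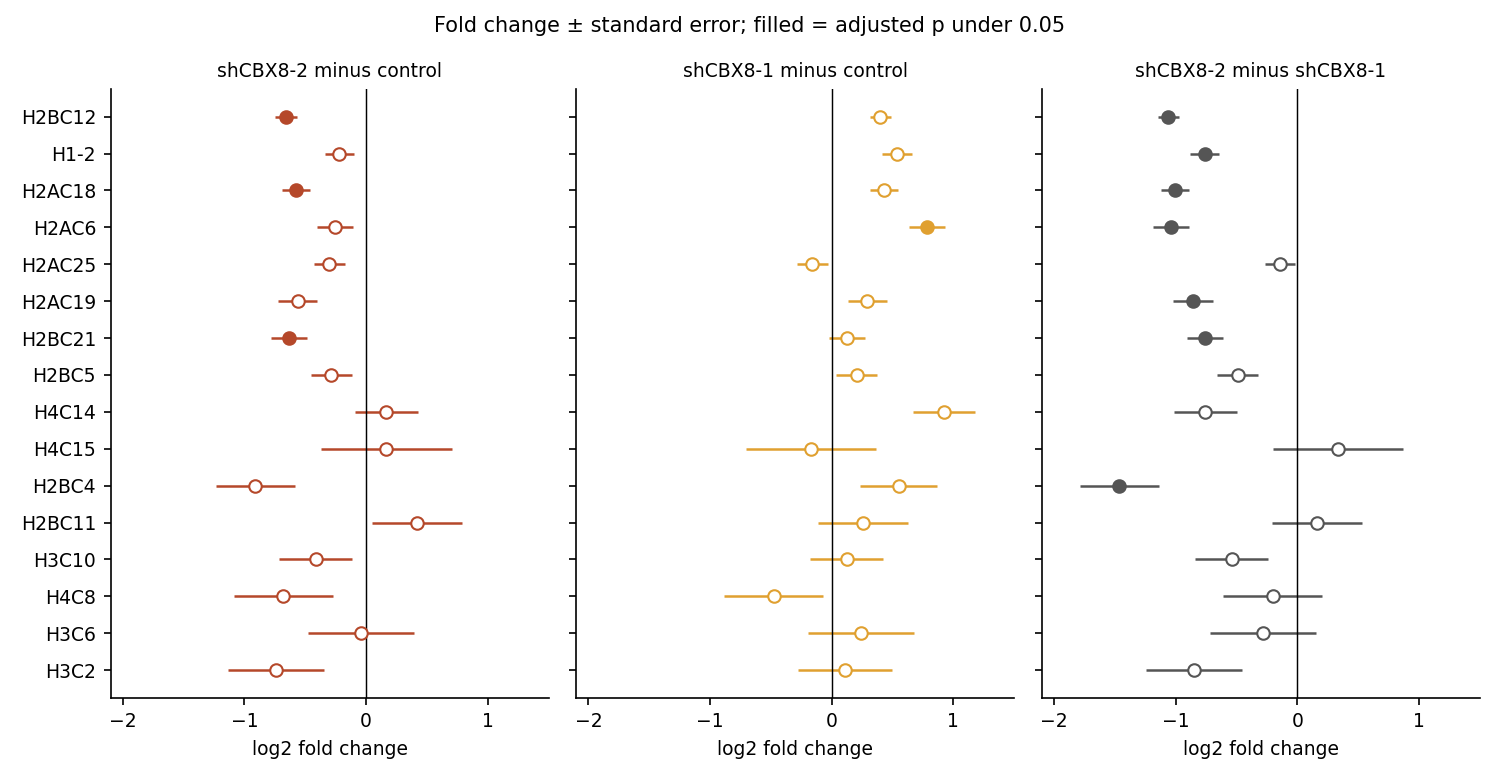
Log2 fold change (points) and standard error (bars) of the 16 genes with a mean of 1 CPM or more in shCBX8-2 minus control, shCBX8-1 minus control and shCBX8-2 minus shCBX8-1, with filled points where the adjusted p was under 0.05. Filled points number 3, 1 and 7, and of the genes with filled points H2BC12, H2AC18 and H2BC21 pass in both the left and the right panel.

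The calls rested on pairs of libraries. H2BC12 in shCBX8-2 minus shCBX8-1 passed whichever library was left out, with adjusted p up to 0.038, and in shCBX8-2 minus control it missed the threshold without either control library (adjusted p up to 0.0644). H2AC18 and H2BC21 in shCBX8-2 minus control missed it without any 1 of the 4 control and shCBX8-1 libraries (adjusted p up to 0.131 and 0.175). In shCBX8-2 minus shCBX8-1, the other 6 genes missed it without either shCBX8-1 library, and H2AC19, H2BC21 and H2BC4 also without either control library. H2BC4 further missed it there with no filter (adjusted p = 0.0518) and with only the libraries compared (adjusted p = 0.0898). Each called gene kept its direction in every alternative run.

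Many H2A and H2B genes lie head to head and share 1 promoter region. Among the genes with a RefSeq promoter there were 11 such pairs, with starts 194 to 248 bases apart, and partners could differ in level. H2AC12 had no promoter entry and so could not be paired. It lies at chr6:27147106-27147562, beside the start of H2BC12 at 27146858. Per kilobase of coding sequence and over the 6 libraries, H2AC6 stood at 32.2 CPM against 6.33 CPM for its partner H2BC4, H2AC25 at 31.3 against 0.528 CPM for H2BC26, and H2BC21 at 25 against 1.81 CPM for H2AC20. H2AC6 and H2BC4, whose starts are 246 bases apart, both fell in shCBX8-2 minus shCBX8-1. H2BC21 fell there too, while H2AC20 had a log2 fold change of 0.24 ± 0.50 (adjusted p = 0.802).

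Promoter windows of 300 bases, 250 before and 50 after the start, were taken from the RefSeq table of GRCh38.p14, which held 64 of the 70 genes. H2AC12, H2BC12L, H3C11, H3C12, H4C1 and H4C3 had no entry. The motifs were searched on both strands and may overlap each other. The table gives H3C4 and H2AC7 the same window, so the 64 windows are 63 distinct ones. TATAAA was present in 65.62% of the 64 windows, against 11.53% of 35116 windows of all genes, and CCAAT in 84.38% against 34.61%. The octamer ATTTGCAT, a binding site of POU factors such as OCT1, was present in 40.62% against 1.77% (39.68% of the 63). By class, it was found in 14 of 18 H2B windows, 11 of 16 H2A windows, 0 of the H1 and H4 windows, and among the 11 H3 windows only in the one that H3C4 shares with H2AC7. CCAAT was found in every H1, H2A, H2B and H3 window and in 3 of 13 H4 windows.

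The windows given here belong to genes that fell in shCBX8-2 relative to shCBX8-1, with H2BC12 as the highest histone gene, H2BC21 and H2AC6 as divergent promoters and H1-2 as a window with neither TATAAA nor the octamer. Capitals mark the 3 motifs or their reverse complements.
H2BC12, chr6:27146809-27147108, minus strand: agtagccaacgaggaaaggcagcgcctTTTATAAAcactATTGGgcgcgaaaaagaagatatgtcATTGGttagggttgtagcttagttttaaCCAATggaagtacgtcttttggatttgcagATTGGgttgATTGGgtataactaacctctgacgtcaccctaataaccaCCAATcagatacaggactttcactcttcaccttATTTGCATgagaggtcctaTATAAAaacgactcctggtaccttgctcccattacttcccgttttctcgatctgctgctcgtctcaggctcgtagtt
H2BC21, chr1:149886633-149886932, minus strand: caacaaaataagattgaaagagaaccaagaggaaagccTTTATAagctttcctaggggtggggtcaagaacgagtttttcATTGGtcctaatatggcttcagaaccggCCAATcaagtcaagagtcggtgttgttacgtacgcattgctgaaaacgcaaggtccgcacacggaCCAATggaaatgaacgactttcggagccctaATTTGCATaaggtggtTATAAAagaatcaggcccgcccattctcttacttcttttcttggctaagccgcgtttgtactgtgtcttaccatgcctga
H2AC6 (shared with H2BC4), chr6:26123922-26124221, plus strand: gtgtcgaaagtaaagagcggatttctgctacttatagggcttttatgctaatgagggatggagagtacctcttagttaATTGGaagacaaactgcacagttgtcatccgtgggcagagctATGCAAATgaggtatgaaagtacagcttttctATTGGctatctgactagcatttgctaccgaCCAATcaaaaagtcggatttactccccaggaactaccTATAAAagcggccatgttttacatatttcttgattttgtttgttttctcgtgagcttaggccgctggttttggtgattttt
H1-2, chr6:26056421-26056720, minus strand: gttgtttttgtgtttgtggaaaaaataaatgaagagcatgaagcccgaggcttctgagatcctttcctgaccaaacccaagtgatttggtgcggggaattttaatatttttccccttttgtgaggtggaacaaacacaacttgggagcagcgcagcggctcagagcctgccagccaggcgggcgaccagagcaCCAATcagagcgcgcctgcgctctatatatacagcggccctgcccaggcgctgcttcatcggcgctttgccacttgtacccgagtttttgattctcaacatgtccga
A match is a string of letters and not a measured binding site.

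Replacement histones, whose mRNAs are as a rule polyadenylated and made outside S phase as well, had a higher summed level in shCBX8-2. It was 1.44 and 1.30 times the control mean in shCBX8-2 and 1.08 and 1.10 times in shCBX8-1. Of 11 tested, 7 rose in shCBX8-2 minus control, among them the H2A variant H2AZ1 (0.74 ± 0.08 on the log2 scale, adjusted p = 0.00421) and the DNA damage variant H2AX (0.72 ± 0.12, adjusted p = 0.014). CENPA, the centromeric H3, rose by 0.81 ± 0.18 (adjusted p = 0.0341) and H3-3B, a source of histone H3.3, by 0.38 ± 0.07 (adjusted p = 0.0147). H2AZ2 (0.39) and MACROH2A1 (0.31) rose as well. H2AJ, H1-10, MACROH2A2 and H3-3A missed the threshold, at -0.05, 0.65, 0.0017 and -0.22. In shCBX8-1 minus control 0 of the 11 passed by edgeR, with 5 at an unadjusted p under 0.05, and 3 rose by DESeq2. Of the 11, 3 rose in shCBX8-2 minus shCBX8-1, among them H2AZ1 (0.42 ± 0.08, adjusted p = 0.0266) and MACROH2A1 (0.29 ± 0.07, adjusted p = 0.0498).

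The summed replication-dependent level was 7.07 and 7.39% of the summed replacement histone level in shCBX8-2, 15.9 and 16.1% in shCBX8-1, and 13.3 and 13.3% in control. The groups were separate, with shCBX8-2 lowest.

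Genes of S phase and DNA replication also rose in shCBX8-2. Of 39 listed and tested, 27 rose and 0 fell in shCBX8-2 minus control, with a median of 0.50 on the log2 scale against -0.04 over all tested genes. In shCBX8-1 minus control 1 rose, the thymidine kinase TK1 (0.56 ± 0.09, adjusted p = 0.0321), and 18 had an unadjusted p under 0.05. DESeq2 called 11 as higher and 0 as lower there, against 1482 of all 17106 tested genes called in either direction, and the median was 0.19. Relative to shCBX8-1, 11 rose in shCBX8-2 and 0 fell, with a median of 0.29. RRM2, the small subunit of ribonucleotide reductase, rose by 1.27 ± 0.08 in shCBX8-2 minus control (adjusted p = 0.000889) and had -0.18 ± 0.07 in shCBX8-1 minus control (adjusted p = 0.27). The flap endonuclease FEN1 (0.76 ± 0.07, adjusted p = 0.00297) and the helicase subunit MCM7 (0.65 ± 0.07, adjusted p = 0.00367) rose in shCBX8-2 minus control too.

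Of the genes for histone gene transcription and 3′ end formation, 7 of 21 rose in shCBX8-2 minus control and 0 fell, against 0 of 21 in either direction in shCBX8-1 minus control by edgeR, where 4 had an unadjusted p under 0.05 and DESeq2 called 1. CCNE2, a cyclin of S phase entry, rose by 1.31 ± 0.24 in shCBX8-2 minus control (adjusted p = 0.0168), E2F1 by 0.60 ± 0.11 (adjusted p = 0.0155) and the cap-binding subunit NCBP1 by 0.36 ± 0.08 (adjusted p = 0.0282). Of the 11 genes for histone mRNA decay, 2 rose in shCBX8-2 minus control, the helicase UPF1 (0.41 ± 0.08, adjusted p = 0.0187) and the exosome subunit EXOSC10 (0.54 ± 0.08, adjusted p = 0.0103). Of the 26 histone chaperone genes, 11 rose and 0 fell there, with the H3-H4 chaperones DNAJC9 at 0.78 ± 0.09 (adjusted p = 0.00401) and ASF1B at 0.81 ± 0.13 (adjusted p = 0.011). Of these 3 lists, 4, 1 and 3 genes rose in shCBX8-2 minus shCBX8-1 and 0 fell. Of all tested genes, 4.05% were called higher in that comparison and 6.03% in shCBX8-2 minus control.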

How the data were processed

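RNA sequencing of 6 A549 libraries, 2 per group, was analysed from the authors' table. As deposited, it holds expected counts, that is estimated counts of reads per RefSeq transcript made by the authors and not normalized, whole numbers already. The submitters' processing notes name HISAT2 2.2.1, StringTie 2.2.1, DESeq2 1.34.0 and hg38. The counting step, strandedness and poly(A) selection are not stated there or in the labels. Of 84787 transcripts, 99.45% were matched to genes through RefSeq (GRCh38.p14) or GENCODE v29, and counts, repeated accessions included, were summed per gene. The symbol H2BC12L was included as a numbered H2BC symbol. Tests used edgeR 4.0.16 in R 4.3.3 (quasi-likelihood test, TMM scaling, filterByExpr with minimum count 10 and minimum total 15, 1 model of 3 groups, 3 residual degrees of freedom), two-sided, with Benjamini-Hochberg adjustment over 17106 genes and a threshold of 0.05. Standard errors came from the F statistic. The common dispersion was 0.0365. Libraries of a group differed by more than counting noise (chi-square per gene 71.6 in shCBX8-2, 15.2 in shCBX8-1 and 19.8 in control), so none was treated as deposited more than once, which does not show that they were separate cultures. The pipeline was tested on simulated data. Genes with a mean of at least 1 CPM, or that passed in a comparison, are described with every library. For each other list, names were drawn from the 4 genes with the smallest p in knockdown minus control, and the tested replacement histones, of which 1 is not reported here by name. H2AC20, H1-4, H3C14, H3C15, H2BC26, KRT8, KRT18, SFTPB, SFTPC, CD3E, DCN and RN7SL1 are described outside this rule, chosen after their values were seen. The members and lists were chosen with earlier results of these data known. Alternatives were DESeq2 1.42.0 size factors and its Wald test, no filter, each library left out, the replicate block, 1 group for all 4 knockdown libraries, fits of the compared libraries alone, repeated accessions left out, transcripts as deposited and, added after seeing the data, copies with equal coding sequences summed.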

Additional observations from a re-analysis of the deposited data

Results flagged for a closer look

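In 7 replication-dependent histone genes the effect of shCBX8-2 differed from that of shCBX8-1 by the direct test of the difference, shCBX8-2 minus shCBX8-1, with edgeR and adjustment over all tested genes. These are 15.9% of the 44 tested, against 5.79% of all tested genes that were lower and 9.84% called in either direction. The 7 include H2AC18 and H2AC19, which have equal coding sequences. With such copies summed, 6 histone genes were called, against 1681 of all 17103 tested genes. Without either shCBX8-1 library 6 of the 7 missed the threshold, H2BC12 being the exception. The log2 difference was -1.06 for H2BC12, -1.01 for H2AC18, -1.04 for H2AC6, -0.76 for H1-2, -0.86 for H2AC19, -0.76 for H2BC21 and -1.46 for H2BC4. In each of the 7 both shCBX8-2 libraries were below both shCBX8-1 libraries. The 7 were chosen by this same comparison, so that order is no separate support. CBX8 itself differed the other way, by 1.02 (adjusted p = 0.0114).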

How the results depend on the processing

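Each called histone gene kept its direction under every alternative that could give a value. Of 944 values of single genes under alternatives, 825 kept direction and side of the threshold, 73 lost the call, 18 gained it and 28 changed sign, none of these with an adjusted p under 0.506. The number of histone genes called in knockdown minus control was 0 throughout. In shCBX8-1 minus control, 5 were called with the DESeq2 Wald test or with only the libraries compared. With no filter, with the replicate block, without repeated accessions or with transcripts as deposited it was 0. Over all tested genes, the DESeq2 Wald test called 1482 of 17106, only the libraries compared gave 2425 of 16783, and the main fit 423 of 17106. No filter gave 318 of 21268, the replicate block 178 of 17106, and leaving out repeated accessions 356 of 16898. In shCBX8-2 minus control, 1 was called with only the libraries compared (998 of all 16659 tested) and 0 with transcripts as deposited. The median of the histone genes there was -0.057 with no filter. In shCBX8-2 minus shCBX8-1, 4 were called with only the libraries compared (640 of all 16555 tested) and 0 with transcripts as deposited. The median there was -0.37 with the replicate block. With transcripts as deposited, 40859 rows were tested and between 0 and 1 of all passed in a comparison. Leaving out 1 library gave 0 to 5 calls in shCBX8-1 minus control, 0 to 4 in shCBX8-2 minus control and 1 to 7 in shCBX8-2 minus shCBX8-1. The medians then ran from -0.144 to -0.0211 in knockdown minus control, 0.180 to 0.272 in shCBX8-1 minus control, -0.438 to -0.0895 in shCBX8-2 minus control and -0.493 to -0.213 in shCBX8-2 minus shCBX8-1. With all libraries they were 0.0118, 0.291, -0.222 and -0.241, over 44 histone genes. With a library left out the filter kept other histone genes, such as 55 without shCBX8-1 replicate 1 and 50 without shCBX8-2 replicate 2, so these medians are over different genes. The lone library of a group was then assumed to vary like the others. Calls over all tested genes also varied widely between the fits with a library left out. The ranges of histone calls in those fits therefore say little about the histone genes in particular.

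In knockdown minus control, H2AC18 changed sign with the 4 knockdown libraries as 1 group (0.0143), and H4C15 did so with DESeq2 size factors (0.0140), the DESeq2 Wald test (0.0139), 1 knockdown group (0.0088) and without repeated accessions (0.0042). With 1 library left out, sign changes occurred in knockdown minus control for H2BC5 (-0.193 to 0.130), H3C6 (-0.106 to 0.263), H3C10 (-0.339 to 0.0819) and H4C15 (-0.610 to 0.323). In shCBX8-1 minus control they occurred for H3C2 (-0.0080 to 0.24), H3C6 (-0.154 to 0.570), H3C10 (-0.0575 to 0.363) and H4C15 (-1.37 to 0.494). In shCBX8-2 minus control they occurred for H2BC11 (-0.0743 to 0.789), H3C6 (-0.445 to 0.286), H4C14 (-0.0405 to 0.360) and H4C15 (-0.0851 to 0.393). In shCBX8-2 minus shCBX8-1 they occurred for H2BC11 (-0.333 to 0.533), H3C6 (-0.689 to 0.0960), H4C8 (-0.758 to 0.210) and H4C15 (-0.343 to 1.52). The cause was not tested.

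Same-numbered libraries did not deviate together (correlations of -0.0057, -0.0158 and 0.0209 across genes), so the replicate numbers were not taken as pairs. With the replicate block, 3 histone genes were called in shCBX8-2 minus control, where 1691 of all 17106 tested genes were called. In shCBX8-2 minus shCBX8-1 the block left 6 histone genes called, against 1086 of all 17106 tested genes. H2BC4 missed the threshold there (adjusted p = 0.0697), and H2AC6 missed it in shCBX8-1 minus control (adjusted p = 0.086).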
